A study of Mus musculus with 21 samples.

Results

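The transcription factor share is the percent of a cell's unique molecular identifiers (UMIs) that came from transcription factor genes, as the authors computed it for every cell of this single-cell series. Every cell of the series carried a value, 87822 of 87822, so no cell was picked for the measure. A cell type from the Harmony integration was present for 83925 cells, and 3897 cells had no such label. The genes counted as transcription factors are not listed in the deposited tables, and gene-level values were not used here. The cells came from the tibialis anterior muscle of female C57Bl/6J mice aged 20 months, before injury and after injection of notexin, a snake-venom phospholipase that kills muscle fibres. Each sample came from 1 mouse, with 4 samples before injury. Days post-injury are written dpi, and the series holds 4 samples of 1 dpi, 3 of 2 dpi, 4 of 3.5 dpi, 3 of 5 dpi and 3 of 7 dpi. The comparisons asked how the share differed between cell types, between myogenic states and over the days of regeneration.

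Transcription factors bind DNA and set which genes a cell transcribes. Their transcripts are mostly short-lived and scarce beside those of structural and metabolic genes, so a cell that makes a few products in bulk has a small transcription factor share even when its regulators are active. In muscle stem cells (MuSCs), regulators of quiescence are replaced by myogenic regulators as the cells activate, divide, commit and fuse into fibres.

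Across all cells the share ran from 0.102% to 16.1%, with a median of 3.66%. The middle 50% of cells lay between 2.83% and 4.78%, and 90% lay between 1.76% and 7.06%. No cell had a share of 0. The samples held between 974 and 10556 cells (median 3838) and between 5602464 and 70730171 UMIs. Over all cells of a sample, whatever their type, the median share was 3.61%, 4.0%, 4.13% and 4.79% in the uninjured samples and 2.77%, 2.78%, 3.17% and 2.84% at 3.5 dpi. The 3.5 dpi samples were the 4 lowest of the series by this value. Because the mixture of cells changed with time, the comparisons below used the median of a sample's cells of 1 type, wherever at least 10 such cells were present. This gave 423 values over 23 cell types, of which 6 types did not lack a value in any of the 21 samples.

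Arterial endothelial, smooth muscle and capillary endothelial cells had the highest means. Arterial endothelial cells averaged 5.48% ± 0.763 (SD, n = 21), with the lowest sample at 4.34%, the median at 5.61% and the highest at 7.07%. Smooth muscle cells averaged 5.27% ± 0.612 (n = 21), from 4.52% through a median of 5.22% to 6.52%. Capillary endothelial cells averaged 5.03% ± 0.651 (n = 21), from 3.92% through 5.32% to 6.25%. Sample ranges of these 3 types overlapped widely, and the highest sample of each was 5 dpi replicate B. Neutrophils followed with 4.88% ± 0.856 (n = 17), spread from 3.23% through 4.67% to 6.55%. Cells labelled neural averaged 4.41% ± 0.551 (n = 21), from 3.38% through 4.49% to 5.23%. Within single samples, the type with the highest share was the arterial endothelium in 9, smooth muscle in 5, neutrophils in 4, MuSCs in 2 and capillary endothelium in 1.

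Between these and the lowest types lay a broad middle group. B cells averaged 4.23% ± 0.691 (n = 14), tenocytes 4.22% ± 0.782 (n = 19) and T cells 4.01% ± 0.597 (n = 18). Among fibro-adipogenic progenitors (FAPs), the pro-remodeling cells averaged 3.98% ± 0.574 (n = 21), the adipogenic cells 3.93% ± 0.657 (n = 21) and the stem cells 3.85% ± 0.513 (n = 19). Venous endothelial cells averaged 3.98% ± 0.685 (n = 19). MuSCs averaged 3.91% ± 1.23 (n = 19) and had the widest spread over samples of all types, from 1.86% to 6.07%. Cxcl10+ monocytes averaged 3.86% ± 0.577 (n = 18) and natural killer (NK) cells 3.80% ± 0.689 (n = 14). Means of the inflammatory monocytes, dendritic cells and Cx3cr1-low macrophages were 3.59% ± 0.350 (n = 19), 3.47% ± 0.480 (n = 18) and 3.43% ± 0.449 (n = 19).

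The lowest shares belonged to cells labelled myonuclei, patrolling monocytes, differentiating myogenic cells and Cx3cr1-high macrophages. Myonuclei is the authors' label within this single-cell series of dissociated muscle, for which no nuclei were isolated. In Cx3cr1-high macrophages the mean was 3.38% ± 0.407 (n = 18), from 2.69% through a median of 3.44% to 3.98%. Myoblasts and progenitors, which reached 10 cells only from 3.5 dpi on, averaged 2.99% ± 0.696 (n = 10), from 1.62% through 3.01% to 4.02%. Patrolling monocytes averaged 2.86% ± 0.443 (n = 17), from 2.14% through 2.84% to 3.79%. Type IIb myonuclei averaged 1.83% ± 0.359 (n = 20), from 1.24% through 1.86% to 2.62%, and type IIx myonuclei averaged 1.73% ± 0.319 (n = 19), from 1.27% through 1.69% to 2.31%. No sample of either myonuclear type reached the mean of the patrolling monocytes. In percentage points, myonuclei also had the smallest spread from cell to cell. Their median interquartile range over cells was 0.654 in type IIb and 0.604 in type IIx, against 2.19 in arterial endothelium and 2.12 in smooth muscle. Relative to the mean their spread was not the smallest. Patrolling monocytes had 0.794 at a mean of 2.86% and B cells 0.929 at a mean of 4.23%. Type IIx myonuclei were the lowest type in 12 samples and type IIb in 7, with MuSCs and patrolling monocytes lowest in 1 sample each.

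The mean of the highest type exceeded that of the lowest by 3.76 percentage points, a ratio of 3.18. Ordered by mean, 21 of the 22 pairs of neighbouring types did not differ by more than the spread of their within-sample differences. The exception was the step from patrolling monocytes down to type IIb myonuclei, where the difference within samples averaged 0.928 ± 0.607 (SD) and was positive in 16 of 16 samples. When mitochondrial and ribosomal protein UMIs were left out of the denominator, the distance between the highest and lowest types was 4.94 percentage points. With this denominator the MuSCs averaged 5.86%, against 3.91% of all UMIs.

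**Figure D1:**
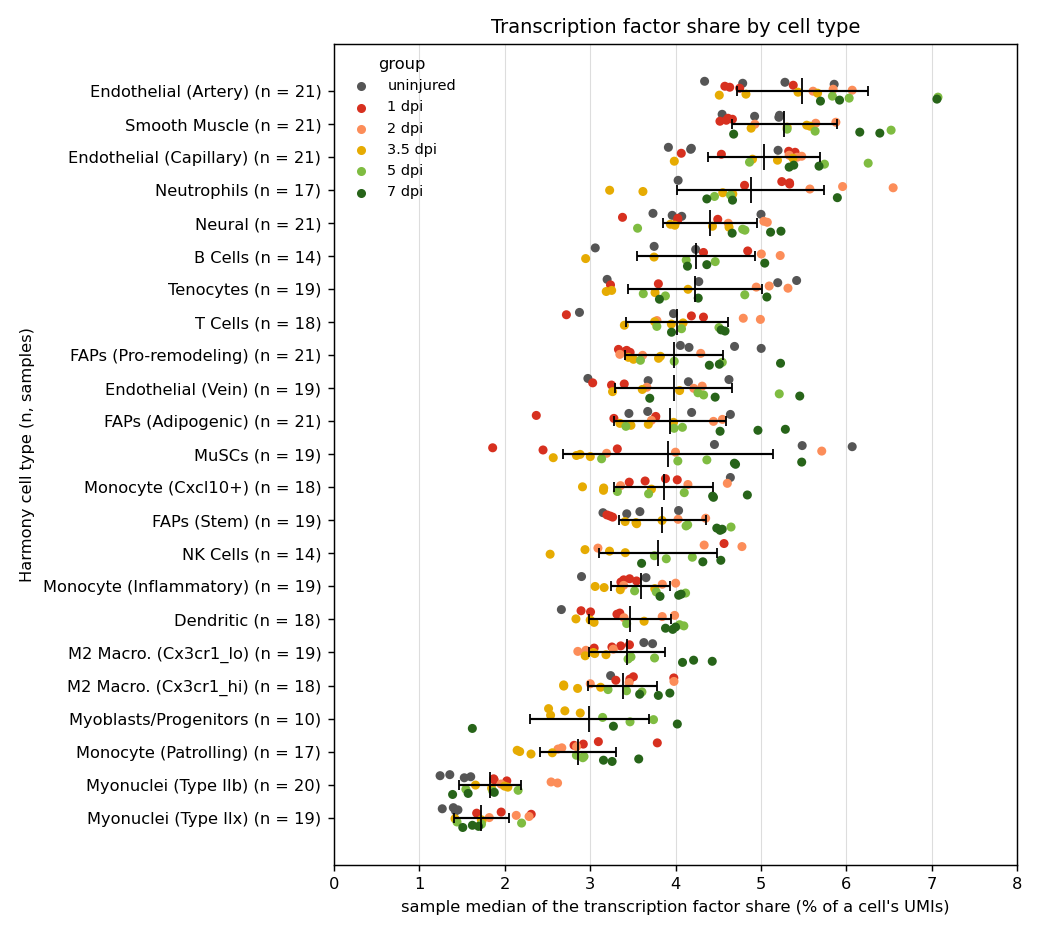
Transcription factor share (x axis, percent of UMIs) by cell type (y axis), where each point is the median over cells of 1 sample, coloured by time point, the vertical mark is the mean over samples and the whiskers are the SD. Arterial endothelium, at a mean of 5.48%, stands at the top and the myonuclei, at 1.83% and 1.73%, stand apart at the bottom.

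Grouped into 6 broader classes, cells were compared within samples by an exact two-sided sign-flip test with Benjamini-Hochberg adjustment, and 11 of 15 pairs passed at 0.05. Endothelial cells had the highest class mean, 5.04% ± 0.615 (n = 21), from 3.93% through a median of 5.21% to 6.25%. Their share exceeded that of monocytes and macrophages by 1.73 percentage points in 21 of 21 samples (exact adjusted p = 4.77e-06). It exceeded that of FAPs by 1.13 in 20 of 21 samples (exact adjusted p = 4.77e-06) and that of lymphocytes by 1.02 in 20 of 21 (exact adjusted p = 1.23e-05). The excess over lymphocytes was 0.535 with mitochondrial and ribosomal UMIs left out (exact adjusted p = 0.0112). The endothelium was the highest of all classes in 16 of 21 samples. The MuSC class was highest in 4 samples, uninjured replicates A, B and C and 2 dpi replicate A, and lymphocytes in 1 dpi replicate C. Against MuSCs and progenitors the endothelial excess was 1.27 in 15 of 19 samples (exact adjusted p = 0.00163). This last call did not survive with mitochondrial and ribosomal UMIs left out, at 0.636 (exact adjusted p = 0.160), or in cells of 3000 to 12000 UMIs, at 0.882 (exact adjusted p = 0.0563).

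FAPs averaged 3.90% ± 0.501 over 21 samples, from 3.20% through 3.89% to 5.08%, and exceeded monocytes and macrophages by 0.597 in 18 of 21 samples (exact adjusted p = 7.95e-05). Monocytes and macrophages averaged 3.31% ± 0.404, from 2.53% through 3.4% to 4.04%. Their difference from lymphocytes was -0.708, with only 2 of 21 samples showing the monocytes and macrophages higher (exact adjusted p = 8.44e-05). It was -1.71 with mitochondrial and ribosomal UMIs left out and -0.344 in cells of 3000 to 12000 UMIs, and passed in both. Lymphocytes averaged 4.01% ± 0.587, from 2.87% through 4.03% to 5.06%, a range shared with the FAPs. Neither FAPs and lymphocytes (-0.111, exact adjusted p = 0.486) nor FAPs and the MuSC class (0.167, exact adjusted p = 0.486) passed. Lymphocytes and the MuSC class did not either (0.222, exact adjusted p = 0.455). The MuSC class averaged 3.75% ± 1.17 (n = 19), from 1.89% through 3.82% to 5.93%. Monocytes and macrophages minus this class gave -0.469, with the monocytes and macrophages higher in 5 of 19 samples (exact p = 0.0481, adjusted p = 0.0601). That comparison passed when 1 dpi replicate A (exact adjusted p = 0.00882) or 1 dpi replicate D (exact adjusted p = 0.0353) was left out. It also passed with at least 25 cells per value (exact adjusted p = 0.0172), with means over cells (0.00938), with pooled shares (0.00447), with mitochondrial and ribosomal UMIs left out (5.72e-05) and with the stricter cell filter (0.0288). The difference was -1.62 with mitochondrial and ribosomal UMIs left out and -0.234 with the mean of type medians.

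All 5 other classes exceeded the myonuclei, which averaged 1.78% ± 0.316 (n = 20), from 1.25% through 1.81% to 2.41%. The excess was 3.30 percentage points for endothelial cells, 2.21 for lymphocytes, 2.15 for FAPs and 1.52 for monocytes and macrophages, each in 20 of 20 samples (exact adjusted p = 4.77e-06 for each). For MuSCs and progenitors it was 1.98, in 17 of 18 samples (exact adjusted p = 2.86e-05). With mitochondrial and ribosomal UMIs left out, the excess was 3.69 for lymphocytes and 3.64 for MuSCs and progenitors. Type IIb and IIx myonuclei had medians of 2113 and 2340 UMIs per cell, below every type of the other classes. Whether depth caused the excess was not tested.

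Types within a class were compared in the same way, and 15 of 21 pairs passed. In the endothelium, arterial cells exceeded venous cells by 1.55 in 19 of 19 samples (exact adjusted p = 8.01e-05), and capillary cells exceeded venous cells by 1.09 in 17 of 19 (exact adjusted p = 8.01e-05). Capillary minus arterial cells gave -0.449, with capillary cells higher in 2 of 21 samples (exact adjusted p = 0.00176). The order from artery through capillary to vein thus held in most samples, with the vein clearly lowest. FAP types did not separate, with differences of 0.0502 between pro-remodeling and adipogenic cells (exact adjusted p = 0.628), 0.186 between pro-remodeling and stem cells (exact adjusted p = 0.198) and 0.0686 between adipogenic and stem cells (exact adjusted p = 0.628).

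Patrolling monocytes had a lower share than each of the other 4 monocyte and macrophage types. Patrolling minus Cxcl10+ monocytes gave -0.958, with patrolling cells higher in 0 of 17 samples (exact adjusted p = 8.01e-05). Against inflammatory monocytes the difference was -0.768, with patrolling cells higher in 1 of 17 (exact adjusted p = 0.00016). Cx3cr1-high macrophages gave -0.530, with patrolling cells higher in 0 of 17 (exact adjusted p = 8.01e-05), and Cx3cr1-low macrophages gave -0.542, with patrolling cells higher in 1 of 17 (exact adjusted p = 0.00032). Patrolling cells were therefore at the bottom of the lineage in almost every sample. Cxcl10+ monocytes exceeded Cx3cr1-high macrophages by 0.428 in 17 of 17 samples (exact adjusted p = 8.01e-05) and Cx3cr1-low macrophages by 0.443 in 16 of 18 (exact adjusted p = 0.00034). Inflammatory monocytes exceeded Cx3cr1-high macrophages by 0.207 in 15 of 18 samples (exact adjusted p = 0.0259), a call lost in cells of 3000 to 12000 UMIs (exact adjusted p = 0.0652). Inflammatory monocytes and Cx3cr1-low macrophages did not pass (0.160, exact adjusted p = 0.143), nor did the 2 macrophage types (-0.0336, exact adjusted p = 0.727).

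Inflammatory minus Cxcl10+ monocytes gave -0.234, with the inflammatory cells higher in 7 of 18 samples (exact adjusted p = 0.032). This call was lost without uninjured replicate C (0.0613), 1 dpi replicate B (0.0603), 2 dpi replicate A (0.0595), 7 dpi replicate A (0.0625) or 7 dpi replicate C (0.0562), all exact adjusted p. It was also lost with at least 25 cells (exact adjusted p = 0.105), with mitochondrial and ribosomal UMIs left out (0.167) and with the stricter cell filter (0.110). T cells exceeded NK cells by 0.371 in 13 of 14 samples (exact adjusted p = 0.00559), but in cells of 3000 to 12000 UMIs the difference was -0.0336 (exact adjusted p = 0.705). The T and NK call was also lost with pooled shares (exact adjusted p = 0.0529) and with the stricter cell filter, at 0.235 (exact adjusted p = 0.0568), while the difference was 0.575 with mitochondrial and ribosomal UMIs left out. NK minus B cells gave -0.389, with NK cells higher in 0 of 10 samples (exact adjusted p = 0.0041), and the stricter filter ended this call too, at -0.230 (exact adjusted p = 0.0568). That difference was -0.257 with pooled shares and -0.830 with mitochondrial and ribosomal UMIs left out. T and B cells did not pass (-0.129, exact adjusted p = 0.195). MuSCs exceeded myoblasts and progenitors by 0.778 in 9 of 10 samples (exact adjusted p = 0.00684). Their excess was 1.36 with mitochondrial and ribosomal UMIs left out and 1.3 in cells of 3000 to 12000 UMIs.

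Type IIb myonuclei exceeded type IIx by 0.101, in 12 of 19 samples (exact adjusted p = 0.0421). This small difference was lost when any of 12 libraries was left out, namely uninjured replicate C (0.0613) or D (0.0556), 1 dpi replicate B (0.0677), 2 dpi replicate A (0.0814), B (0.0784) or C (0.0597), 3.5 dpi replicate A (0.0711), B (0.0738) or C (0.0762), 5 dpi replicate A (0.0557) or C (0.0593) and 7 dpi replicate A (0.0725), all exact adjusted p. It was lost as well with at least 25 cells (0.0586), in cells of 3000 to 12000 UMIs (0.0977) and with the stricter filter, where the difference was 0.0469 (0.270).

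Over the time course, the share of each type was compared between time points through the F statistic, with its p from 100000 permutations of the samples, and 13 of 23 types passed after adjustment (16 at an unadjusted p below 0.05). Across the 13 types the highest mean fell at 7 dpi in 8, at 2 dpi in 3, at 5 dpi in 1 and in uninjured muscle in 1. Their lowest mean fell at 1 dpi in 5 types, at 3.5 dpi in 5, in uninjured muscle in 2 and at 2 dpi in 1. Of the 8 types with at least 2 uninjured samples, the time point farthest from uninjured muscle lay above it in 5 and below it in 3. With samples of the same replicate letter treated as a block, 5 of 23 types passed. The calls lost in that setting are not listed by type below.

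MuSCs had the largest difference from uninjured muscle. Their share was 4.45%, 5.48% and 6.07% in the uninjured samples, from 27, 49 and 87 cells. At 1 dpi it was 1.86%, 3.32% and 2.45%, from 16, 61 and 32 cells, and at 2 dpi it was 5.71%, 4.0% and 3.19%, from 104, 30 and 22 cells. The 1 dpi samples lay wholly below the uninjured samples, while the 2 dpi samples spread over both ranges. At 3.5 dpi the values were 2.88%, 2.84%, 3.0% and 2.57%, and at 5 dpi they were 3.13%, 4.37% and 4.03%. At 7 dpi they were 5.48%, 4.69% and 4.70%, inside the uninjured range. The means ran 5.33%, 2.54%, 4.30%, 2.82%, 3.84% and 4.96%, so the course dipped at 1 dpi and again at 3.5 dpi (permutation adjusted p = 0.0111, n = 19 samples). The 3 samples at 1 dpi averaged -2.79 percentage points from uninjured muscle, and -5.12 with mitochondrial and ribosomal UMIs left out.

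The 2 low points of the MuSC course came from cells of opposite depth. MuSCs had medians of 3912 to 5892 UMIs per cell in the uninjured samples, 1428 to 1712 at 1 dpi, 13198 to 20888 at 3.5 dpi and 6618 to 10596 at 7 dpi. Restricted to MuSCs with 3000 to 12000 UMIs, the uninjured samples gave 4.49%, 5.41% and 6.07%, and the 7 dpi samples gave 5.48%, 5.13% and 5.21%. At 1 dpi only replicate C kept enough such cells, and its 21 cells had a share of 5.36%, against 3.32% over all 61 of its MuSCs. At 3.5 dpi, replicates C and D gave 3.04% and 2.74% in this window. These values came from 62 of 207 and 24 of 110 cells, and replicates A and B had too few such cells. All 5 dpi samples kept enough such cells and gave 3.01%, 4.28% and 3.64%. In the window, the 2 samples at 3.5 dpi and all 5 dpi samples lay below the uninjured samples. The sample at 1 dpi lay among the uninjured samples. The window narrows differences in depth without removing them, and whether depth caused the low values at any time point was not tested.

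Pro-remodeling FAPs had shares of 4.06%, 4.69%, 4.16% and 5.00% in uninjured muscle and 3.33%, 3.43%, 3.41% and 3.47% at 1 dpi. All 4 samples at 1 dpi lay below all 4 uninjured samples. Values were 4.29%, 3.35% and 3.61% at 2 dpi and 3.82%, 3.45%, 3.80% and 3.51% at 3.5 dpi. They were 3.59%, 3.98% and 4.55% at 5 dpi and 5.23%, 4.51% and 4.39% at 7 dpi. The 3.5 dpi samples still lay below uninjured muscle, and the 7 dpi samples overlapped it. The time course passed the permutation test (adjusted p = 0.0121, n = 21), with 1 dpi at -1.07 from uninjured muscle and a mean of 4.71% at 7 dpi. In cells of 3000 to 12000 UMIs the call was lost (permutation adjusted p = 0.0666), and the difference at 1 dpi was only -0.0924. The low value at 1 dpi was thus seen over all cells and was nearly absent among cells in this window. Pro-remodeling FAPs had medians of 4092 to 8028 UMIs per cell in uninjured muscle and 10642 to 29297 at 1 dpi.

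Stem FAPs changed over the time course with the second smallest p of all types (permutation adjusted p = 0.0023, n = 19). Their shares were 4.03%, 3.58%, 3.15% and 3.43% in uninjured muscle and 3.20%, 3.23% and 3.26% at 1 dpi, with overlap. At 2 dpi they were 4.35% and 4.03%, and at 3.5 dpi 3.84%, 3.41%, 3.54% and 3.54%. At 5 dpi they were 4.14%, 4.12% and 4.65%, and at 7 dpi 4.48%, 4.55% and 4.52%. All samples at 5 and 7 dpi lay above all uninjured samples, and the 7 dpi mean was 0.968 above the uninjured mean. This call held in every alternative that kept the type.

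Adipogenic FAPs had shares of 3.67%, 4.19%, 3.45% and 4.64% in uninjured muscle and 2.37%, 3.77%, 3.76% and 3.28% at 1 dpi. They were at 4.55%, 3.72% and 4.44% at 2 dpi and at 3.98%, 3.35%, 3.68% and 3.48% at 3.5 dpi. At 5 dpi they gave 3.42%, 4.08% and 3.98%, and at 7 dpi 5.29%, 4.96% and 4.52%. The 7 dpi samples were high, with the lowest of them inside the uninjured range, and the other time points overlapped uninjured muscle. The course passed (permutation adjusted p = 0.0168, n = 21), with 7 dpi 0.934 above uninjured muscle, or 0.573 with pooled shares. The call was lost without 7 dpi replicate A (permutation adjusted p = 0.0604), in cells of 3000 to 12000 UMIs (0.0549) and with labels from 2 other integrations of the cells, BBKNN (0.0580) and Scanorama (0.0620).

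**Figure D2:**
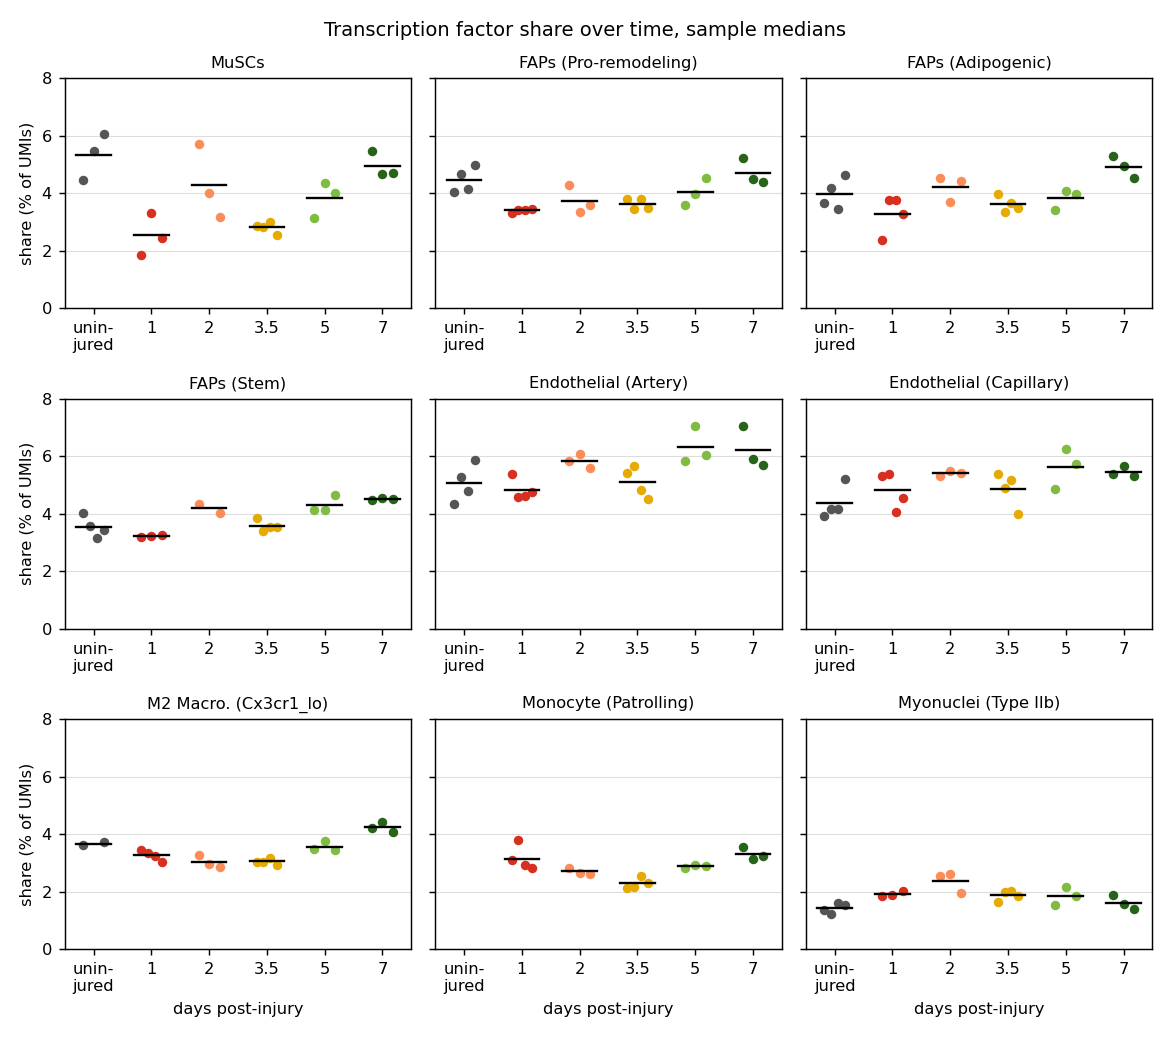
Transcription factor share (y axis, percent of UMIs) by time after injury (x axis, uninjured and days) in 9 cell types. Each point is the median over cells of 1 sample, and each horizontal bar is the mean of a time point. MuSCs have their lowest mean at 1 dpi, 2.54%, and the IIb myonuclei their highest at 2 dpi, 2.37%.

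In arterial endothelial cells the uninjured samples were at 4.34%, 5.28%, 4.79% and 5.86% and the 1 dpi samples at 5.38%, 4.58%, 4.63% and 4.75%. The 2 dpi samples were at 5.84%, 6.07% and 5.61%, and the 3.5 dpi samples at 5.43%, 5.66%, 4.82% and 4.51%. Those at 5 dpi were at 5.84%, 7.07% and 6.03%, and those at 7 dpi at 7.06%, 5.92% and 5.70%. The late samples were high, although the lowest of them overlapped the highest uninjured sample. The course passed (permutation adjusted p = 0.0207, n = 21), with 5 dpi 1.25 above uninjured muscle, or 0.784 with the stricter filter. It was lost with at least 25 cells (permutation adjusted p = 0.0522) and with BBKNN labels (0.0580).

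Capillary endothelial cells had shares of 3.92%, 4.18%, 4.18% and 5.20% in uninjured muscle and 4.87%, 6.25% and 5.74% at 5 dpi. They were at 5.32%, 5.40%, 4.07% and 4.54% at 1 dpi and at 5.37%, 4.90%, 5.19% and 3.98% at 3.5 dpi. At 2 dpi they were at 5.33%, 5.48% and 5.42%, and at 7 dpi at 5.38%, 5.68% and 5.33%. The 2 and 7 dpi samples lay wholly above uninjured muscle, but the course over all time points did not pass (permutation adjusted p = 0.0814, n = 21). It passed without uninjured replicate D (0.0396) or 5 dpi replicate A (0.0350), both permutation adjusted p. Smooth muscle cells did not pass either (permutation adjusted p = 0.0602), with shares of 4.54%, 5.22%, 4.92% and 5.21% in uninjured muscle and 5.31%, 6.52% and 5.63% at 5 dpi. Smooth muscle was at 4.61%, 4.67%, 4.59% and 4.52% at 1 dpi, 5.88%, 5.64% and 4.93% at 2 dpi, 5.53%, 5.57%, 5.31% and 4.88% at 3.5 dpi and 6.16%, 6.39% and 4.68% at 7 dpi. Only its 5 dpi samples lay wholly above uninjured muscle. The 5 dpi mean was 0.847 above uninjured muscle, or 1.33 in cells of 3000 to 12000 UMIs. That difference was 0.292 with the stricter filter, 0.418 with pooled shares and 0.510 with mitochondrial and ribosomal UMIs left out. Smooth muscle passed without 2 dpi replicate C (0.0372), 5 dpi replicate A (0.0389) or 7 dpi replicate C (0.0111), all permutation adjusted p.

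Cx3cr1-low macrophages gave the smallest p of all types (permutation p = 2e-05, adjusted p = 0.00046, n = 19). Their shares were 3.63% and 3.73% in the 2 uninjured samples and 3.46%, 3.36%, 3.25% and 3.05% at 1 dpi. At 2 dpi they were 3.27%, 2.95% and 2.86%, and at 3.5 dpi 3.04%, 3.05%, 3.18% and 2.94%. Samples at 1, 2 and 3.5 dpi all lay below the uninjured samples. At 5 dpi the shares were 3.48%, 3.75% and 3.44%, and at 7 dpi 4.21%, 4.43% and 4.08%. The 7 dpi samples lay above all other samples of this type, and the 7 dpi mean exceeded the 2 dpi mean by 1.21. The call was lost with BBKNN labels (permutation adjusted p = 0.0580) and Scanorama labels (0.272), and the cause was not tested.

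Patrolling monocytes had no uninjured sample with 10 cells. Their shares were 3.1%, 3.79%, 2.92% and 2.81% at 1 dpi and 2.84%, 2.67% and 2.62% at 2 dpi. At 3.5 dpi they were 2.14%, 2.17%, 2.56% and 2.31%, below every other sample of the type. Shares were 2.84%, 2.93% and 2.91% at 5 dpi and 3.57%, 3.16% and 3.26% at 7 dpi. The course passed (permutation adjusted p = 0.00636, n = 17), with the 7 dpi mean 1.03 above the 3.5 dpi mean. It was lost with BBKNN labels (permutation adjusted p = 0.169). Patrolling monocytes had medians of 12558 to 23678 UMIs per cell at 3.5 dpi and 5621 to 9919 at 7 dpi, and the call held in cells of 3000 to 12000 UMIs.

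Among the other myeloid types, Cxcl10+ monocytes changed over the course (permutation adjusted p = 0.0227, n = 17), from 2.91%, 3.16%, 3.72% and 3.16% at 3.5 dpi to 4.84%, 4.43% and 4.44% at 7 dpi without overlap, a difference in means of 1.34. Between them they were at 3.32%, 4.10% and 3.68% at 5 dpi, and earlier at 3.88%, 4.02%, 3.64% and 3.46% at 1 dpi and 4.61%, 4.14% and 3.36% at 2 dpi. That call was lost without 3.5 dpi replicate A (0.0534), 3.5 dpi replicate B (0.0516) or 7 dpi replicate A (0.0647), all permutation adjusted p. Cx3cr1-high macrophages changed (permutation adjusted p = 0.0231, n = 17), from 2.69%, 2.69%, 3.12% and 2.85% at 3.5 dpi to 3.93%, 3.58% and 3.80% at 7 dpi without overlap, a difference of 0.931. Their values were 3.51%, 3.98%, 3.46% and 3.30% at 1 dpi, 3.98%, 3.46% and 3.0% at 2 dpi and 3.21%, 3.43% and 3.61% at 5 dpi. The highest of these lay above the 7 dpi samples, so 7 dpi was highest by the mean only. Their call was lost without 3.5 dpi replicate A (0.0709), B (0.0707) or D (0.0588) or 7 dpi replicate A (0.0604), in cells of 3000 to 12000 UMIs (0.0549), with BBKNN labels (0.0895) and with Scanorama labels (0.242), all permutation adjusted p.

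In dendritic cells, which also passed (permutation adjusted p = 0.0168, n = 17), the values were 2.83%, 3.0%, 3.63% and 3.05% at 3.5 dpi and 4.0%, 3.88% and 3.97% at 7 dpi, again without overlap and with a difference of 0.822. Dendritic cells were at 2.89%, 3.0%, 3.35% and 3.31% at 1 dpi, 3.99%, 3.84% and 3.4% at 2 dpi and 3.43%, 4.05% and 4.10% at 5 dpi, so the 2, 5 and 7 dpi samples overlapped. Inflammatory monocytes did not pass (permutation adjusted p = 0.0691), with 2.90% and 3.65% in uninjured muscle and 4.06%, 4.04% and 3.82% at 7 dpi. In between they were at 3.46%, 3.39%, 3.54% and 3.36% at 1 dpi, 4.0%, 3.84% and 3.39% at 2 dpi, 3.06%, 3.16%, 3.76% and 3.35% at 3.5 dpi and 3.52%, 3.77% and 4.12% at 5 dpi. Inflammatory monocytes passed without uninjured replicate B (0.0439) or C (0.0471), 2 dpi replicate C (0.0372), 3.5 dpi replicate C (0.0295) or 5 dpi replicate A (0.0448), all permutation adjusted p. They also passed with mitochondrial and ribosomal UMIs left out (0.0290), the stricter filter (0.0182), BBKNN labels (0.0342), Scanorama labels (0.0172) and, in the alternative chosen after seeing the data, no uninjured samples (0.0471).

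Neutrophils had shares of 5.24%, 5.33%, 5.33% and 4.81% at 1 dpi and 5.96%, 6.55% and 5.57% at 2 dpi. At 3.5 dpi they were 3.23%, 3.62%, 4.55% and 4.67%, lower than at 1 and 2 dpi in every sample. They were 4.64% and 4.46% at 5 dpi and 5.89%, 4.37% and 4.67% at 7 dpi. The course passed (permutation adjusted p = 0.0168, n = 16), with the 2 dpi mean 2.01 above the 3.5 dpi mean. The call was lost without 2 dpi replicate B (permutation adjusted p = 0.0603), in cells of 3000 to 12000 UMIs (0.340), with BBKNN labels (0.170) and with Scanorama labels (0.182).

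Type IIb myonuclei had shares of 1.36%, 1.24%, 1.60% and 1.53% in uninjured muscle and 1.87%, 1.88% and 2.02% at 1 dpi. At 2 dpi they were 2.54%, 2.62% and 1.96%, and at 3.5 dpi 1.66%, 2.00%, 2.04% and 1.85%. All samples of these 3 time points lay above all uninjured samples. At 5 dpi the values were 1.54%, 2.16% and 1.86%, and at 7 dpi 1.88%, 1.57% and 1.39%, overlapping uninjured muscle. The course passed (permutation adjusted p = 0.0111, n = 20), with 2 dpi 0.941 above uninjured muscle. It was lost in cells of 3000 to 12000 UMIs (permutation adjusted p = 0.0712) and, in an alternative chosen after seeing the data, without the uninjured samples (0.0546).

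Type IIx myonuclei had shares of 1.4%, 1.27%, 1.45% and 1.42% in uninjured muscle, 1.96%, 1.67% and 2.31% at 1 dpi and 2.13%, 2.28% and 1.82% at 2 dpi. They were 1.42%, 1.73% and 1.73% at 3.5 dpi, 1.44%, 2.20% and 1.73% at 5 dpi and 1.62%, 1.69% and 1.51% at 7 dpi. The samples at 1, 2 and 7 dpi lay wholly above uninjured muscle, those at 3.5 and 5 dpi overlapped it, and 2 dpi was 0.694 above it by the means. The course passed narrowly (permutation adjusted p = 0.0415, n = 19). It was lost without any of 12 libraries, namely uninjured replicate A (0.0694), B (0.0688), C (0.0608) or D (0.0645), 1 dpi replicate A (0.0632), 2 dpi replicate A (0.0796) or B (0.0868), 3.5 dpi replicate A (0.0534) or B (0.0560), 5 dpi replicate C (0.0574) and 7 dpi replicate A (0.0604) or B (0.0536), all permutation adjusted p. It was also lost with at least 25 cells (0.117), in cells of 3000 to 12000 UMIs (0.0977), with mitochondrial and ribosomal UMIs left out (0.0527) and without the uninjured samples (0.205).

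The remaining types did not pass the time-course test. B cells had an adjusted permutation p of 0.0595, and they passed without uninjured replicate B (0.0370) or C (0.0410) or 2 dpi replicate C (0.0490). B cells passed as well with at least 5 cells (0.0258), means over cells (0.0345), Scanorama labels (0.0261) and, in the alternative chosen after seeing the data, no uninjured samples (0.0393). Neural cells, tenocytes, venous endothelial cells and NK cells each had an adjusted permutation p of 0.0871. Neural cells passed without uninjured replicate B (0.0370) or 5 dpi replicate A (0.0341), tenocytes without uninjured replicate A (0.0213), venous cells without 7 dpi replicate C (0.0389) and NK cells without 2 dpi replicate C (0.0115). Tenocytes passed too with means over cells (0.0118), pooled shares (0.00825), the stricter filter (0.00957) and no uninjured samples (0.0377). The stricter filter brought neural cells below the threshold (0.0356), and pooled shares did so for venous cells (0.0171). However, the neural difference between 7 dpi and uninjured muscle was 0.811 over all cells and only 0.0228 with the stricter filter. T cells had an adjusted permutation p of 0.291, and no omission changed that result. Myoblasts and progenitors were at 2.51%, 2.70%, 2.88% and 2.54% at 3.5 dpi, 3.15%, 3.74% and 3.47% at 5 dpi and 4.02%, 3.27% and 1.62% at 7 dpi, with an adjusted permutation p of 0.381. Without 7 dpi replicate C, the sample at 1.62%, they passed (permutation adjusted p = 0.0294).

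When all injured samples were set against the uninjured samples by an exact two-sided permutation test of the difference in means, 0 of 13 types passed after adjustment and 4 had an unadjusted p below 0.05. MuSCs averaged 3.64% in 16 injured samples against 5.33% in 3 uninjured samples, a difference of -1.70 (exact permutation p = 0.0206, adjusted p = 0.0671). Capillary endothelial cells averaged 5.19% against 4.37% (exact permutation p = 0.0152, adjusted p = 0.0659). Type IIb myonuclei averaged 1.93% against 1.43% (exact permutation p = 0.0107, adjusted p = 0.0659) and type IIx myonuclei 1.82% against 1.38% (exact permutation p = 0.0111, adjusted p = 0.0659). Injured and uninjured samples overlapped in each of the 4 types. The MuSC difference was -3.48 with mitochondrial and ribosomal UMIs left out and -1.11 in cells of 3000 to 12000 UMIs. The capillary difference was 0.823, and 0.419 with mitochondrial and ribosomal UMIs left out and 0.262 with the stricter filter. The IIx difference was 0.431, and 0.274 with at least 25 cells, 0.244 in cells of 3000 to 12000 UMIs and 0.222 with the stricter filter. Capillary cells, IIb and IIx myonuclei passed without 1 dpi replicate C (exact permutation adjusted p = 0.0481 for each). Without 7 dpi replicate A, MuSCs, IIb and IIx myonuclei (exact permutation adjusted p = 0.0402 for each) and the pro-remodeling FAPs passed. Type IIb and IIx myonuclei also passed with means over cells (exact permutation adjusted p = 0.0319 for both), pooled shares (0.0402 for both) and the log2 scale (0.0386 for both), and MuSCs with means over cells (0.0492).

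Each time point was also compared alone with uninjured muscle, and 0 of 59 comparisons passed the exact two-sided permutation test after adjustment (lowest adjusted p = 0.169), with 10 at an unadjusted p below 0.05. With 4 samples against 3 or 4 the smallest possible exact p was 0.0286, and with 3 against 3 it was 0.1, so with 59 comparisons none could pass unless most of them reached that floor. In 16 of the 59 comparisons the samples did not overlap. These were 4 of 11 at 1 dpi, 3 of 11 at 2 dpi, 3 of 12 at 3.5 dpi, 3 of 12 at 5 dpi and 3 of 13 at 7 dpi. The MuSCs were among them at 1, 3.5 and 5 dpi, the pro-remodeling FAPs at 1 and 3.5 dpi and the stem FAPs at 5 and 7 dpi.

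The authors also placed myogenic cells in states along a differentiation path, quiescent MuSCs, activated MuSCs, committed myoblasts, fusing myocytes and mature myonuclei. Quiescent MuSCs averaged 3.88% ± 1.29 (n = 14 samples), from 1.63% through a median of 4.01% to 5.86%. Activated MuSCs averaged 3.38% ± 0.820 (n = 10), from 2.45% through 3.38% to 4.96%. Committed myoblasts averaged 3.43% ± 0.590 (n = 8), from 2.64% through 3.44% to 4.57%, and fusing myocytes 2.69% ± 0.890 (n = 10), from 1.23% through 2.68% to 4.22%. The sample ranges of all 4 states overlapped. Within samples, by the exact two-sided sign-flip test, 11 of 15 pairs of states passed.

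Quiescent MuSCs exceeded fusing myocytes by 0.960 in 9 of 10 samples (exact adjusted p = 0.0146). That excess was 0.601 with pooled shares, 0.418 with the stricter filter and 1.75 with mitochondrial and ribosomal UMIs left out. Quiescent MuSCs exceeded activated MuSCs by 0.340 in 8 of 10 samples (exact adjusted p = 0.0405), and by 0.568 with mitochondrial and ribosomal UMIs left out. This call against activated MuSCs was lost without 3.5 dpi replicate A (0.0746), B (0.0703) or C (0.0527), 5 dpi replicate B (0.0684) or 7 dpi replicate A, B or C (0.0746 each), with at least 25 cells, at 0.148 (0.219), and on the log2 scale (0.0586), all exact adjusted p. Neighbouring states further along did not pass, with 0.0284 between activated MuSCs and committed myoblasts (exact adjusted p = 0.789) and 0.544 between committed myoblasts and fusing myocytes (exact adjusted p = 0.117). Quiescent MuSCs and committed myoblasts did not pass (0.269, exact adjusted p = 0.218), nor did activated MuSCs and fusing myocytes (0.490, exact adjusted p = 0.171).

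All 4 states exceeded the myonuclei. Median UMIs per cell ran from 10281 to 16867 in the states, against 2125 in type IIb and 2340 in type IIx. Whether this gap in depth caused the excess was not tested. Over type IIb the excess was 2.36 for quiescent MuSCs in 13 of 13 samples (exact adjusted p = 0.00366) and 1.59 for activated MuSCs in 10 of 10 (exact adjusted p = 0.00977). It was 1.57 for committed myoblasts in 8 of 8 samples (exact adjusted p = 0.0146) and 0.905 for fusing myocytes in 9 of 10 (exact adjusted p = 0.0146). The excess was largest for quiescent MuSCs and smallest for fusing myocytes, with no step between activated MuSCs and committed myoblasts. The samples behind these values differ, and uninjured samples are found mainly in the quiescent state. Over type IIx it was 2.60, 1.80, 1.81 and 1.06 in the same order, in 12 of 12, 9 of 9, 7 of 7 and 8 of 9 samples (exact adjusted p = 0.00366, 0.0146, 0.026 and 0.0146). The committed myoblasts' excess over IIx was lost without 3.5 dpi replicate B or C or 7 dpi replicate A (exact adjusted p = 0.0521 each). With the stricter filter, the excess of activated MuSCs over IIx and of committed myoblasts over IIb did not pass (exact adjusted p = 0.0536 for both), although both differences were larger, at 2.23 and 1.87. The size of the excess depended on the denominator. With mitochondrial and ribosomal UMIs left out it was 4.34, 2.92, 2.79 and 1.73 over IIb and 4.69, 3.22, 3.13 and 1.92 over IIx, from quiescent MuSCs to fusing myocytes.

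Within the states, the share differed between time points in 3 of 4. With replicate letters as a block, no state passed (permutation adjusted p = 0.113 for quiescent and activated MuSCs and 0.335 for committed myoblasts). Quiescent MuSCs were at 4.06%, 5.62% and 5.86% in uninjured muscle and at 2.88%, 2.87%, 2.91% and 2.43% at 3.5 dpi. They were at 3.03%, 4.32% and 3.97% at 5 dpi and at 5.40%, 4.65% and 4.72% at 7 dpi. The 3.5 dpi samples lay below all samples of the other 3 time points, and the 7 dpi samples fell within the uninjured range (permutation adjusted p = 0.00503, n = 13, with 3.5 dpi at -2.41 from uninjured muscle). At 1 dpi a single sample had enough such cells, 11, and its share was 1.63%.

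Activated MuSCs were at 2.45%, 2.54%, 2.83% and 2.53% at 3.5 dpi, 3.32%, 3.43% and 3.94% at 5 dpi and 4.96%, 4.10% and 3.69% at 7 dpi. Their 5 dpi samples lay above all 3.5 dpi samples (permutation adjusted p = 0.00503, n = 10, with 7 dpi 1.67 above 3.5 dpi). Committed myoblasts were at 3.03%, 2.96% and 2.64% at 3.5 dpi, 3.45%, 3.44% and 3.56% at 5 dpi and 4.57% and 3.78% at 7 dpi. No 2 time points of the committed myoblasts overlapped (permutation adjusted p = 0.00503, n = 8, with 7 dpi 1.3 above 3.5 dpi). Fusing myocytes were at 2.62%, 2.74%, 2.90% and 2.45% at 3.5 dpi, 1.91%, 4.22% and 1.97% at 5 dpi and 3.81% and 3.09% at 7 dpi, and did not pass (permutation adjusted p = 0.540, n = 9). They passed without 5 dpi replicate B, the sample at 4.22% (permutation adjusted p = 0.00679). The states grew shallower over these days, with medians per cell of 21002 to 31167 UMIs at 3.5 dpi and 6841 to 14332 at 7 dpi in activated MuSCs.

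**Figure D3:**
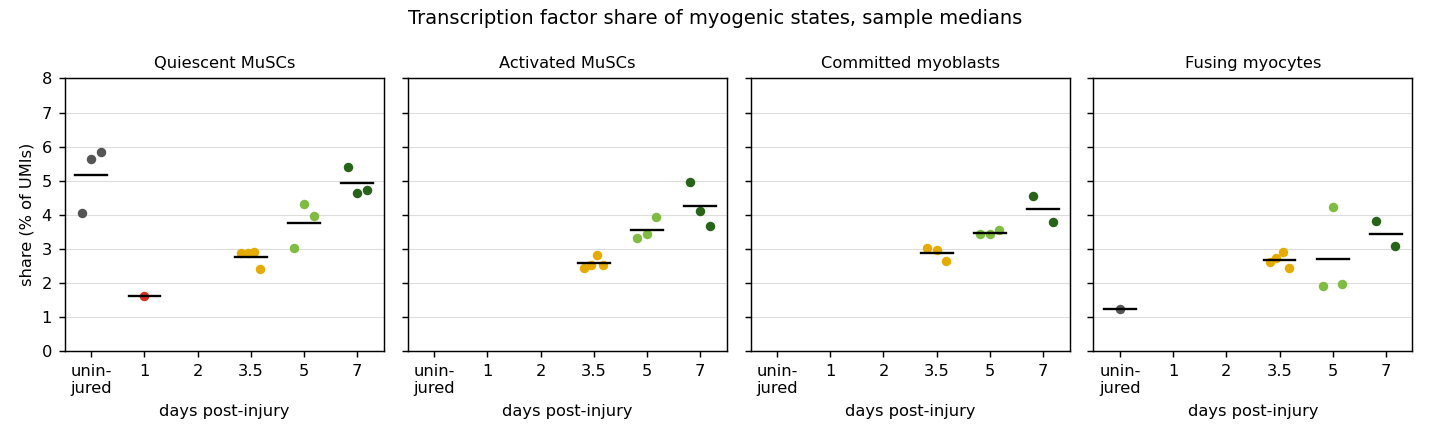
Transcription factor share (y axis, percent of UMIs) by time after injury (x axis, uninjured and days) in the 4 myogenic states. Each point is the median over cells of 1 sample, and each horizontal bar is the mean of a time point. Quiescent and activated MuSCs and committed myoblasts have low values at 3.5 dpi, with means of 2.77%, 2.59% and 2.88%, and higher values at 7 dpi.

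Whether classes followed the same course was tested on the within-sample difference between 2 classes, and 2 of 3 differences passed. The difference of FAPs minus monocytes and macrophages was 0.407, 0.763, -0.142 and 0.846 in uninjured muscle and -0.201, -0.387, 0.0726 and 0.169 at 1 dpi. It was 0.919, 0.548 and 1.14 at 2 dpi, 1.34, 0.877, 0.753 and 0.771 at 3.5 dpi, 0.489, 0.618 and 1.06 at 5 dpi and 1.04, 0.857 and 0.608 at 7 dpi. The FAP excess was absent at 1 dpi, where the samples lay below every sample of 2 to 7 dpi (permutation adjusted p = 0.0164, n = 21). This call was lost in cells of 3000 to 12000 UMIs (permutation adjusted p = 0.269) and with the mean of type medians as the class value (0.0738). Replicate letters as a block ended it too (permutation adjusted p = 0.0607).

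The difference of endothelial cells minus monocytes and macrophages was 0.398, 1.08, 0.483 and 1.76 in uninjured muscle and 1.87, 1.60, 0.806 and 1.29 at 1 dpi. At 2 dpi it was 1.93, 2.40 and 2.47, at 3.5 dpi 2.74, 2.37, 2.17 and 1.3, at 5 dpi 1.67, 2.85 and 2.22 and at 7 dpi 1.52, 1.91 and 1.5. The endothelial excess was smallest in uninjured muscle and largest from 2 to 5 dpi, with overlap (permutation adjusted p = 0.0236, n = 21). It was lost without uninjured replicate A (permutation adjusted p = 0.0683) or C (0.0677), with the stricter cell filter (0.219), with the mean of type medians (0.0738) and, in the alternative chosen after seeing the data, without the uninjured samples (0.158). Replicate letters as a block also ended this call (permutation adjusted p = 0.0607). Endothelial cells minus FAPs did not pass (permutation adjusted p = 0.0655). It passed without 1 dpi replicate C (0.0262) or 3.5 dpi replicate D (0.0384), with pooled shares (0.0191) and on the log2 scale (0.0372), all permutation adjusted p.

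The other gene shares the authors deposited for the same cells also changed over time. Tested in the same way, 19 of 23 types passed for the mitochondrial share, 13 for the ribosomal protein share and 9 for the heat shock protein share.

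The transcription factor share of pro-remodeling FAPs and capillary endothelial cells was set against 5 other measures over the samples, giving 20 correlations, of which 3 passed. In pro-remodeling FAPs it was correlated with the ribosomal protein share, with a Pearson r of -0.714 (permutation adjusted p = 0.0028, n = 21) and a Spearman rho of -0.768 (permutation adjusted p = 0.0022). Their ribosomal share was 7.82% to 9.84% in uninjured muscle and 15.4% to 20.5% at 1 dpi, the time point with their lowest mean transcription factor share. Without the 2 samples farthest from the median, r was -0.680 and rho -0.709 (permutation adjusted p = 0.0152 for both), and in injured samples only they were -0.717 and -0.767 (permutation adjusted p = 0.0101 for both). With the mean of each time point removed, r was 0.103 and rho 0.155, so the relation lay between time points and was absent within them.

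Pro-remodeling FAPs with more UMIs per cell had lower shares by rank (rho -0.583, permutation adjusted p = 0.0402), while r was -0.539 (permutation adjusted p = 0.059). These values were -0.481 and -0.446 without the 2 farthest samples and -0.127 and -0.0647 with time point means removed. In injured samples only they were -0.471 and -0.425. The call by rank was lost in each of these settings. Its permutation adjusted p was 0.260 without the 2 farthest samples, 0.771 with time point means removed and 0.129 in injured samples. In capillary endothelial cells the relation to UMIs per cell did not pass over all samples, with r at -0.393 (permutation p = 0.0779, adjusted p = 0.169) and rho at -0.344. With time point means removed r was -0.748 (permutation adjusted p = 0.0022) and rho -0.627 (permutation adjusted p = 0.0193). Without the 2 farthest samples r was -0.107 and rho -0.125. In injured samples only, r was -0.606 (permutation adjusted p = 0.0318) and rho -0.446 (permutation adjusted p = 0.135). The relation of capillary cells to the ribosomal protein share was similar, with r at -0.432 (permutation adjusted p = 0.124) and rho at -0.386 (permutation adjusted p = 0.169) over all samples and -0.0800 and -0.230 without the 2 farthest. It passed with time point means removed, at r -0.663 (permutation adjusted p = 0.0075) and rho -0.610 (permutation adjusted p = 0.0209), and in injured samples, at r -0.713 (permutation adjusted p = 0.0123) and rho -0.642 (permutation adjusted p = 0.0264). In capillary cells both relations were thus present within time points and did not pass over all samples, whereas in the FAPs they lay between time points.

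Across the cells of 1 type within 1 sample, wherever there were at least 50, the share and the UMIs per cell had a median Spearman rho of -0.163 over 277 such groups, of which 205 were negative. These values describe cells, which are not replicates. The relation was most negative in leukocytes, with median rho at -0.425 in NK cells (7 of 7 samples negative), -0.422 in patrolling monocytes (16 of 17), -0.389 in Cxcl10+ monocytes (12 of 13) and -0.374 in T cells (11 of 11). It went the other way in venous endothelium, with median rho at 0.336 (0 of 4 negative), and in myoblasts and progenitors at 0.186 (2 of 10 negative). MuSCs had a median rho of 0.0692 (2 of 11 negative). A comparison of leukocytes that differ in UMIs per cell therefore includes a difference in depth, and whether depth caused any difference in the share was not tested.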

How the data were processed

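Single-cell RNA was measured in 21 libraries from 21 samples. Following the submitters' processing notes, reads were counted with Cell Ranger 3.1.0, ambient RNA was removed with SoupX, and cells were filtered and labelled with Seurat 3.1.5. The deposited UMIs per cell are therefore expected counts after the authors' ambient removal and are not whole numbers, while the deposited genes per cell are counts. The authors gave gene-set shares, the transcription factor share among them, as a percent of a cell's UMIs, and the ambient estimate of each library as a fraction. Doublets had been removed by the authors. The type labels and states came from expression in the same cells, so they are not independent of the share.

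From these tables the median share was taken per sample and type with at least 10 cells, with pandas 2.3.3 and numpy 2.4.6 under Python 3.11.15. Rank correlations used scipy 1.17.1, and the plots were made in matplotlib 3.10.9. Pairs were compared within samples by an exact two-sided sign-flip test in at least 6 samples, time points by a permutation test of F with 100000 resamples (smallest possible p 1e-05), groups by exact two-sided permutation, and correlations by two-sided permutation. Each family was adjusted by Benjamini-Hochberg at 0.05, and the scripts were tested on simulated data. Every eligible type was given its mean. Full statistics went to the 5 highest and 5 lowest types, up to 10 types that passed the time-course test with the largest difference from uninjured muscle, and the 4 myogenic states. The members and lists were chosen with earlier results of these data known.

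Alternatives were at least 5 or 25 cells, means over cells, pooled shares, a denominator without mitochondrial and ribosomal UMIs, cells of 3000 to 12000 UMIs, a stricter filter (at least 1000 genes and 2000 UMIs, at most 15% mitochondrial), the log2 scale, the mean of type medians for a class, replicate letters as a block, BBKNN or Scanorama labels, each library left out and, chosen after seeing the data, no uninjured samples. A sample is 1 mouse, so spread between samples includes library preparation. Medians of at least 10 cells rest on few cells in rare types, where counting error adds to the spread. Uninjured libraries had 44.2% to 56.3% of reads in cells against 66.5% to 94.8% in all injured libraries but 1 dpi replicate B (47.7%), and median mitochondrial shares of 8.25% to 18.4% against 2.96% to 7.62%, so injury is not separable from library quality. Several leukocyte types had fewer than 2 uninjured samples with 10 cells, so their courses begin at 1 dpi or later. Several time points were collected on the same day, but the samples of a day are not named, so the day was not modelled. The study takes transcription factors from a Gene Ontology term elsewhere, without stating whether the share used it, so no gene was named.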

Additional observations from a re-analysis of the deposited data

Results flagged for a closer look

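The comparisons between classes over time gave 2 results in which the course of the transcription factor share differed by class. FAPs minus monocytes and macrophages had a permutation adjusted p of 0.0164, and endothelial cells minus monocytes and macrophages had a permutation adjusted p of 0.0236. The mean difference for FAPs was 0.468 in uninjured muscle, -0.0867 at 1 dpi and 0.934 at 3.5 dpi. For endothelial cells it was 0.930 in uninjured muscle, 2.27 at 2 dpi and 1.64 at 7 dpi. Whether a change in the classes' composition, their depth or their regulation lay behind these differences was not tested. Single samples standing apart from their group were looked for with Dixon's test in 44 groups of 4 samples of a type at a time point, and 0 were found, although the test marks about 1 group in 20 by chance.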

How the results depend on the processing

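The distance between the highest and lowest cell type, 3.76 percentage points, was 4.94 with mitochondrial and ribosomal UMIs left out of the denominator. It was 2.95 with BBKNN labels and 1.98 with Scanorama labels, which do not hold the same types. For both, only labels with the name of a Harmony type were used. Leaving out single libraries gave 3.67 to 3.83. The 11 of 15 class pairs became 11 to 12 over the omissions, and the 15 of 21 pairs of types became 13 to 16.

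The 13 of 23 types that passed the time-course test became 7 in cells of 3000 to 12000 UMIs. With BBKNN labels 4 of 18 types passed, and with Scanorama labels 4 of 13. Only labels with the name of a Harmony type were tested in these settings. The other settings gave between 11 (at least 25 cells) and 16 (stricter filter), and single omissions gave between 9, without 7 dpi replicate A, and 17, without 2 dpi replicate C or 5 dpi replicate A. Without the uninjured samples, an alternative chosen after seeing the data, 14 types passed. With each replicate letter kept as a block, 5 of 23 types passed. Several time points were collected on the same day, according to the study, but which samples shared a day is not stated for any letter. Samples with the same letter were correlated over types after the time point means were removed. Their 48 pairs had r from -0.850 to 0.529, with a median of -0.0308. The best correlation of a sample was with its own letter in 8 of 21 samples. A shift shared by all types of a library does not enter r, so whether the letters pair the samples was not decided.

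In the myogenic states, 11 of 15 pairs passed. Of these 11, 6 could be tested with at least 25 cells and 5 passed. In cells of 3000 to 12000 UMIs, 3 could be tested and 2 passed, and with the stricter filter 8 could be tested and 5 passed. Some differences were smaller as well, such as quiescent minus activated MuSCs, at 0.148 with at least 25 cells against 0.340. The omissions gave 8 to 11. For the time course, 3 of 4 states passed. In cells of 3000 to 12000 UMIs only quiescent MuSCs could be tested, and this 1 state passed. With the letter as a block 0 passed. The omissions gave 2 to 4, where the 2 arose without 7 dpi replicate A or B because only 2 states could then be tested, so no omission ended a call.

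Injured against uninjured, with 0 of 13 types passing the exact permutation test and 4 at an unadjusted p below 0.05, gave 3 with means over cells, 3 with pooled shares, 2 with the stricter filter and 2 on the log2 scale. The omissions gave 0 to 4, with 3 without 1 dpi replicate C and 4 without 7 dpi replicate A.

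The 2 class differences that followed different courses became 1 in cells of 3000 to 12000 UMIs, 1 with the stricter filter, 0 with the mean of type medians and 0 with the letter as a block. The alternative without the uninjured samples, chosen after seeing the data, gave 1. Omissions gave 1 to 3, with 1 without uninjured replicate A or C.

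Among comparisons and correlations with an unadjusted p below 0.05, these directions turned. Weaker correlations also changed sign between settings and are not listed. T cells minus NK cells was 0.371 over all cells and -0.0336 in cells of 3000 to 12000 UMIs. In pro-remodeling FAPs, the relation to the ribosomal protein share turned from an r of -0.714 and a rho of -0.768 to 0.103 and 0.155 with time point means removed. Their relation to the heat shock protein share turned likewise, from an r of -0.473 and a rho of -0.478 to 0.195 and 0.183. Over all samples neither of these passed (permutation adjusted p = 0.0861 for both). In injured samples only, the rho was -0.679 and passed (permutation adjusted p = 0.0178). In capillary endothelial cells the relation to the mitochondrial share turned from an r of -0.489 to 0.398 in injured samples only. Of the 20 correlations, 3 passed over all samples and 6 in injured samples only. For each of these changed results the cause was not tested.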

Other observations

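Some libraries had a high or low transcription factor share in nearly all their cell types at once, measured against the mean of the same type at the same time point. At 7 dpi, replicate A lay above that mean in 20 of 23 types, by 0.369 percentage points on average, and replicate C lay above it in only 3 of 23, with an average of -0.358. At 5 dpi, replicate B was above in 19 of 23 types (0.299 on average) and replicate A in 1 of 23 (-0.354). In uninjured muscle, replicate A was above in 3 of 13 types (-0.415 on average) and replicate D in 9 of 11 (0.354). In these libraries the types therefore moved together, and the cause was not tested.

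Cells without a Harmony label were most numerous in 2 dpi replicate A, which held 1193 of the 3897 such cells, with a median share of 5.27%. The other 2 samples at 2 dpi gave 3.90% and 3.02%, from 342 and 154 cells, both lower. BBKNN labelled 12417 cells as infiltrating monocytes, of which 1856 had no Harmony label. Of these, 1134 were in 2 dpi replicate A, with a median share of 5.26% and a median of 1959 UMIs per cell, against a share of 4.0% in inflammatory monocytes of the same sample. Such cells lay above the inflammatory monocytes in 9 of 12 samples and below them in 3, at 3.02% against 3.39% in 2 dpi replicate C, 1.97% against 3.16% in 3.5 dpi replicate B and 3.57% against 3.76% in 3.5 dpi replicate C. Whether their low UMI number caused the difference was not tested.

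The same cell barcode occurred in more than 1 library for 966 of 86853 barcodes, 1.11%, with at most 32 shared by any 2 libraries (2 dpi replicate A and 5 dpi replicate B). The cells sharing a barcode had different UMI totals in every case.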
